A study of Homo sapiens with 6 samples.

Results

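Endothelin-1, the small vasoconstrictor peptide whose precursor is encoded by EDN1, is cut out of that precursor by endothelin-converting enzyme 1 (ECE1), a zinc metallopeptidase of the M13 family. The set described here holds 4 endothelin genes (the ligand genes EDN1 and EDN2 and the receptor genes EDNRA and EDNRB) and 6 M13 peptidase genes (ECE1, ECE2, MME, MMEL1, PHEX and ECEL1). They were chosen by name, as targets of phosphoramidon or as endothelin ligands and receptors, with no threshold on their values but with earlier results of these data known. Of these 10 genes, 9 were found by Ensembl identifier among the 38126 gene IDs of the files, and MMEL1 was not analysed here. At the end of 24 h with phosphoramidon, EDN1 mRNA was at 0.280 times its untreated level, ECE1 mRNA was higher, MME and PHEX had moved less, in opposite directions and only just past the threshold, and the receptor genes gave almost no reads in either group.

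Endothelins act on neighbouring cells through the G protein-coupled receptors ETA (EDNRA) and ETB (EDNRB). Their genes encode long precursors that furin-type convertases trim to big endothelin, and ECE1 or ECE2 then releases the active peptide. In the kidney endothelin-1 is made by endothelial cells and by tubular cells, those of the collecting duct above all, and regulates blood flow and the handling of salt and water. The M13 enzymes are membrane-bound zinc peptidases with an active site facing outward or into the secretory pathway. Neprilysin (MME) degrades natriuretic peptides, bradykinin and endothelins, PHEX restrains the phosphate-wasting hormone FGF23 and is mutated in X-linked hypophosphataemia, and ECEL1 acts in motor neurons. Phosphoramidon, a microbial metallopeptidase inhibitor, blocks neprilysin and the endothelin-converting enzymes.

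RNA-seq was performed on HK-2 cells, an immortalised line of human proximal tubular epithelial cells and thus a single line in place of a tubule. Both groups were grown in keratinocyte serum-free medium with bovine pituitary extract and recombinant human EGF, so the controls carried these factors too. The groups were untreated cells (n = 3) and cells given phosphoramidon for 24 h (n = 3), at a dose that the labels do not give. CSE, an abbreviation not spelled out in the labels, stands in the titles of the untreated samples, and their group was taken from the treatment label. No label says that replicates were separate cultures, and the p-values below therefore rest on differences between libraries that could be technical.

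Values are FPKM, fragments assigned to a gene scaled by its length and by the total assigned in the library. Libraries held 18690100 to 24919568 assigned fragments, the fewest being in phosphoramidon replicates 1 and 3. One fragment was worth 0.0197 to 0.0263 FPKM on EDN1 and 0.00549 to 0.00732 FPKM on ECE1, the longer gene. Among markers of the proximal tubule, the renal lineage factor PAX8 was at 63.7 ± 1.91 FPKM in untreated and 70.5 ± 1.595 FPKM in phosphoramidon libraries. It was not called (limma adjusted p = 0.206). PAX8 does not stand for the whole marker list: the phosphate carrier SLC34A1 was called lower (log2 fold change -0.80, limma adjusted p = 0.0169), on few fragments. LRP2, AQP1 and HNF4A, which define the differentiated tubule, were at or near 0. Of the epithelial markers 3 of 4 reached a mean of 1 FPKM in either group, and the list summed to 139 to 151 FPKM in untreated and 110 to 114 FPKM in treated libraries. KRT8 and KRT18 were called lower (limma adjusted p = 0.000112 and 9.33e-05), while EPCAM and CDH1 were not called (limma adjusted p = 0.135 and 0.369). Of the leukocyte markers 0 of 3 reached a mean of 1 FPKM, with sums of 0 to 0.0832 and 0.0557 to 0.210 FPKM. In all, 16175 genes had at least 10 fragments in at least 3 libraries and were tested. Since the samples are bulk RNA, fewer cells of a kind and less RNA per cell cannot be told apart.

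The coding sequence for the mature peptide is shown for both expressed ligands, because their mRNAs are the ones compared below. Each line gives, 5′ to 3′ from the GENCODE 29 transcript, the 21 codons of the peptide and the start of the stretch past the bond that ECE1 cuts. Capitals mark the cysteine codons, whose residues form the disulfide bridges of endothelins.
EDN1: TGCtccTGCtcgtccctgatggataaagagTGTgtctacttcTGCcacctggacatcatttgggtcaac
EDN2: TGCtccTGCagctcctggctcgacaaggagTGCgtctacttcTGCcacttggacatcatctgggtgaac
The 69 bases differed at 13 positions and were 81.2% identical.

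The zinc-binding stretch of 15 codons is shown for 4 peptidases because it is the site at which phosphoramidon acts. Capitals mark the histidine and glutamate codons of the HEXXH zinc motif, again from GENCODE 29 transcripts and 5′ to 3′.
ECE1: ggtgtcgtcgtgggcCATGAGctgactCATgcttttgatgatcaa
ECE2: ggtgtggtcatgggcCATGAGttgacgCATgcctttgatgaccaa
MME: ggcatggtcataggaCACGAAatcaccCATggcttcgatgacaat
PHEX: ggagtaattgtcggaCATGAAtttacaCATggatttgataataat
Over these 45 bases ECE1 was 86.7% identical to ECE2, 66.7% to PHEX and 62.2% to MME, so the pair of converting enzymes was the most alike in sequence among pairs with ECE1.

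The promoter of EDN1 is shown because EDN1 had the widest change of the 5 members tested. The sequence is the 250 bases before the RefSeq start at position 12290361 of chromosome 6 (GRCh38.p14, chr6:12290111-12290360, plus strand), the start among 3 in that table that lies next to the GENCODE 29 gene start, and no GENCODE 29 exon overlaps it. Capitals mark, from left to right, AGATAA (the GATA motif, on the reverse strand), ACGTG (the core of the hypoxia element, reverse strand), TGACTAA (a variant of the AP-1 site) and TATAAA (the TATA box).
EDN1 promoter: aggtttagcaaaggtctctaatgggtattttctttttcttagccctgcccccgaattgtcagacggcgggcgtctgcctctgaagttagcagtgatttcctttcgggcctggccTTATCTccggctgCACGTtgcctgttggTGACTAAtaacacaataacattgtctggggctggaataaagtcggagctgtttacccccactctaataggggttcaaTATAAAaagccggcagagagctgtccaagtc
EDN2 promoter: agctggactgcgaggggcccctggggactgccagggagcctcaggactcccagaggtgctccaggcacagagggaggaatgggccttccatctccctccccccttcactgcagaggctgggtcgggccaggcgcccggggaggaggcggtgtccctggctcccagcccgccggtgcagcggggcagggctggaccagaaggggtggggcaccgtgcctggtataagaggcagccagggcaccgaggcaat
The EDN2 window (chr1:41484684-41484933, minus strand) is set beside it as the other expressed ligand, and held no match to any of 8 motifs searched on both strands (these 4, the AP-1 consensus TGANTCA, the CCAAT box CCAAT, the SMAD-binding CAGAC and the GC box GGGCGG). The EDN1 window also held CAGAC at 3 places that are not capitalised and that overlap none of the marked motifs. Over 35116 RefSeq promoters of the same length, 1.62% held TGACTAA, 9.17% held AGATAA, 18.5% held ACGTG, 10.7% held TATAAA and 38% held CAGAC. The motifs were picked after the EDN1 window had been seen, and a match is a description of letters, not a site that is in use.

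EDN1 (ENSG00000078401, chromosome 6, 12290363 to 12297194, GRCh38, plus strand) encodes preproendothelin-1. Its level was 3.81, 3.13 and 3.98 FPKM in the untreated libraries and 0.999, 0.986 and 1.08 FPKM in the phosphoramidon libraries. All 3 untreated libraries were far above all 3 treated ones, and the treated ones lay close together. The means were 3.64 ± 0.447 and 1.02 ± 0.0510 FPKM (SD, n = 3 per group throughout), resting on 155 to 201 fragments per untreated and 38 to 50 per treated library. EDN1 fell, with a log2 fold change of -1.80 ± 0.11 (SE) on the log2(FPKM + 0.1) scale and a limma adjusted p of 2.02e-05. It also passed limma's test against a change of 1.5-fold (adjusted p = 0.000729). The ratio of pooled levels was 0.280, with an exact 95% interval for counting error of 0.229 to 0.339. Pooled ratios and their intervals, here and below, use no scaling factors between libraries, unlike the log2 fold changes.

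Among all 16175 tested genes the fold change of EDN1 was number 19 from the lowest, while its mean level was at percentile 41.9, so it was a gene of middling abundance with one of the widest decreases. The plot of fold change against level shows it below nearly all genes of like level. With each library left out in turn its log2 fold change ran from -1.91 to -1.73, and it was called each time. No other gene of GENCODE 29 shares exon bases with EDN1.

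EDN1 is known as a product of endothelial cells, but none of the 5 endothelial markers in the files (PECAM1, VWF, CDH5, TEK and CLDN5) reached a mean of 1 FPKM, and their sum was 0.0911 to 0.155 FPKM in untreated and 0.169 to 0.251 FPKM in treated libraries. The 2 collecting duct markers in the files moved in opposite directions: SCNN1A, a sodium channel subunit, was lower (5.76 ± 0.637 to 2.72 ± 0.0738 FPKM), and the water channel AQP3, at a far lower level, was called higher (0.133 ± 0.0721 to 0.285 ± 0.0301 FPKM, log2 fold change 0.73, limma adjusted p = 0.0469). Their sum, nearly all SCNN1A, was 5.08 to 6.31 FPKM in untreated and 2.98 to 3.06 FPKM in treated libraries. Fibroblast and mesangial markers, of which 2 of 5 reached 1 FPKM in either group (LUM and COL1A1), summed to 60.8 to 65.7 FPKM in untreated and 23.5 to 24.9 FPKM in treated libraries. SCNN1A and the fibroblast and mesangial sum were thus lower in the same libraries in which EDN1 was lower, and AQP3 was not. HK-2 is a single cell line, so these values describe marker genes in that line and are no count of other cell types. Any relation of these genes to EDN1 was not tested.

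EDN2 (ENSG00000127129, chromosome 1, 41478775 to 41484673, minus strand) encodes the precursor of endothelin-2, a ligand of the same receptors. It was at 0.955, 0.798 and 0.660 FPKM in untreated and 0.681, 0.535 and 0.713 FPKM in treated libraries. The groups overlapped, since the lowest untreated library was below the upper pair of treated ones. With 27 to 37 and 21 to 23 fragments per library, the log2 fold change was -0.34 ± 0.17 (SE) and did not pass (limma adjusted p = 0.162). The pooled ratio was 0.790 with a counting interval of 0.569 to 1.09. The pooled EDN1 ratio of 0.280 lay outside that interval, which leaves out variation between libraries and so cannot settle how the genes differ. The untreated level of EDN1 was above that of EDN2 in every library, while the difference between the genes in fold change was not tested. The third ligand gene, EDN3, was listed at 0 in all 6 libraries.

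**Figure D1:**
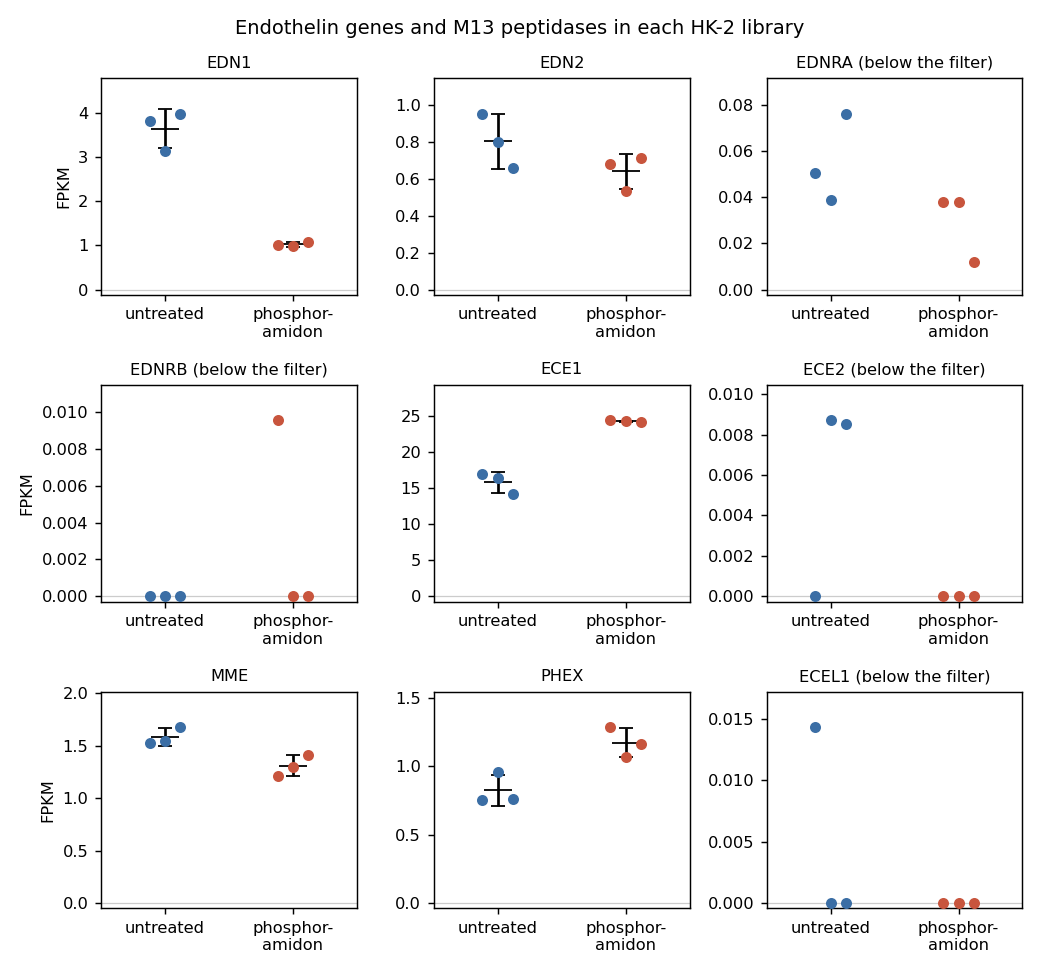
FPKM (vertical axes, each from 0 with its own scale) of the 9 genes in the 6 HK-2 libraries, with 3 untreated libraries in blue and 3 phosphoramidon libraries in red; black bars give the mean and SD of the 5 tested genes. The groups are apart for EDN1, ECE1, MME and PHEX and overlap for EDN2, and the genes below the filter lie under 0.1 FPKM.

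The receptor genes were close to absent. EDNRA (ENSG00000151617, chromosome 4, 147480917 to 147544954, plus strand), the receptor that drives contraction in smooth muscle, had 5, 4 and 8 fragments in untreated and 3, 4 and 1 in treated libraries, or 0.0502, 0.0388 and 0.0761 FPKM and 0.0379, 0.0379 and 0.0121 FPKM. The highest treated value was just below the lowest untreated one, at equal numbers of fragments. Summed over libraries there were 17 against 8 fragments, a ratio of 0.541 whose counting interval ran from 0.202 to 1.32, so no difference was detectable at this depth. EDNRB (ENSG00000136160, chromosome 13, 77895481 to 77975529, minus strand), the receptor that also clears endothelin, had 0 fragments in all untreated libraries, which allows a pooled level of up to 0.00737 FPKM. It had 1, 0 and 0 fragments in the treated ones. Neither gene passed the filter, and neither was tested.

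ECE1 (ENSG00000117298, chromosome 1, 21217247 to 21345572, minus strand) was the member with the highest level in every library. It was at 16.9, 16.4 and 14.2 FPKM in untreated and 24.4, 24.2 and 24.2 FPKM in treated libraries. All treated libraries were above all untreated ones and nearly equal to each other, while untreated replicate 3 was the lowest. The means were 15.8 ± 1.45 and 24.2 ± 0.0965 FPKM, on 2567 to 4409 fragments per library. ECE1 rose, with a log2 fold change of 0.55 ± 0.07 (SE) and a limma adjusted p of 0.000424, and did not pass the test against 1.5-fold (adjusted p = 1). Leaving out each library gave 0.47 to 0.61, called each time.

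The fold change of ECE1 was at percentile 94.7 of all tested genes and its level at percentile 88.0. Of its exon bases 3.27% are shared with the antisense gene AL031728.1, which had at most 0.0830 FPKM in any library. RefSeq's table gives 4 starts for ECE1, and gene-level values do not say which of them was used. The counting interval of the pooled ratio, 1.49 to 1.58, was the narrowest of the 5 tested members. It covers counting error only and uses no scaling factors. The log2 fold change of ECE1 was 0.62 without such factors and 0.55 with them.

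**Figure D2:**
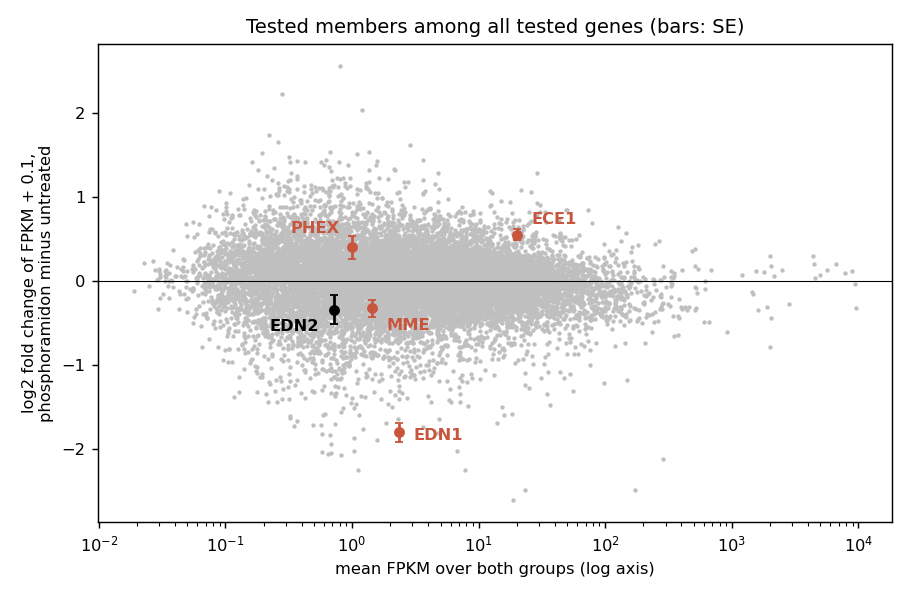
Log2 fold change of FPKM + 0.1 (vertical axis, phosphoramidon minus untreated, bars give the SE) against mean FPKM over both groups (horizontal, log axis) for the 16175 tested genes in grey, with called members in red and EDN2, which was not called, in black. EDN1 at -1.80 lies at the lower edge of the cloud, while ECE1 at 0.55 (percentile 94.7), MME, PHEX and EDN2 lie inside it.

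ECE2 (ENSG00000145194, chromosome 3, 184276011 to 184293031, plus strand), the converting enzyme of acidic secretory compartments in neurons and endocrine cells, had 0, 1 and 1 fragments in untreated libraries and 0 in each treated one, which allows a pooled treated level of up to 0.01 FPKM. Annotated readthrough transcripts of EEF1AKMT4-ECE2, which was not analysed here, share 62.7% of its exon bases, so reads from the shared part may have been left out by the counting. ECEL1 (ENSG00000171551, chromosome 2, 232479827 to 232487828, minus strand) had 1 fragment in untreated replicate 1 and 0 elsewhere, for a pooled treated upper limit of 0.0160 FPKM. These limits and intervals cover counting error only.

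MME (ENSG00000196549, chromosome 3, 155024124 to 155183729, plus strand), which encodes neprilysin, was at 1.53, 1.54 and 1.68 FPKM in untreated and 1.21, 1.30 and 1.41 FPKM in treated libraries. The groups did not overlap, but the highest treated library was near the lowest untreated one. The means were 1.58 ± 0.0816 and 1.31 ± 0.101 FPKM, on 218 to 400 fragments per library. MME fell, with a log2 fold change of -0.32 ± 0.10 (SE) and a limma adjusted p of 0.0366. The call was kept without phosphoramidon replicate 3 (limma adjusted p = 0.045) and was lost without any other library: adjusted p was 0.0816, 0.0684 and 0.116 without untreated replicates 1, 2 and 3, and 0.0967 and 0.0954 without phosphoramidon replicates 1 and 2. It was also lost when no scaling factors were applied to the deposited FPKM (-0.26, adjusted p = 0.0845) and without a filter on low values (adjusted p = 0.0897), and with a pseudocount of 1 the fold change was -0.20.

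PHEX (ENSG00000102174, chromosome X, 22032441 to 22251310, plus strand) is best known from bone and teeth. It was at 0.753, 0.956 and 0.763 FPKM in untreated and 1.28, 1.07 and 1.16 FPKM in treated libraries. Every treated library was above every untreated one, with untreated replicate 2 the nearest to the treated group. PHEX rose from 0.824 ± 0.114 to 1.17 ± 0.108 FPKM, on 115 to 173 fragments per library, with a log2 fold change of 0.40 ± 0.13 (SE) and a limma adjusted p of 0.0488. The call was kept without untreated replicate 2 (limma adjusted p = 0.0392) and lost without any other library: adjusted p was 0.12 and 0.118 without untreated replicates 1 and 3, and 0.138, 0.0678 and 0.0949 without phosphoramidon replicates 1, 2 and 3. It was also lost without a filter on low values (limma adjusted p = 0.142) and with factors from all genes (0.0534), and with a pseudocount of 1 the fold change was 0.22.

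Of the 5 members tested, 4 were called at an adjusted p below 0.05, where 33.6% of all tested genes were. ECE1 and PHEX were the 2 called higher (15.6% of all tested genes) and EDN1 and MME the 2 called lower (17.9%). EDN1 alone passed the test against 1.5-fold, which 0.804% of genes passed. In these 4 members the groups did not overlap, as in 49.7% of all tested genes. The 4 members below the filter (EDNRA, EDNRB, ECE2 and ECEL1) are not part of these counts. The split of calls over all genes depends on scaling: 2528 of 5430 called genes were higher with factors between libraries, and 3647 of 5815 without them, where the median of all genes moved from 0.01 to 0.07. The 4 calls compared with both scalings kept their signs, although MME was no longer past the threshold without factors.

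**Figure D3:**
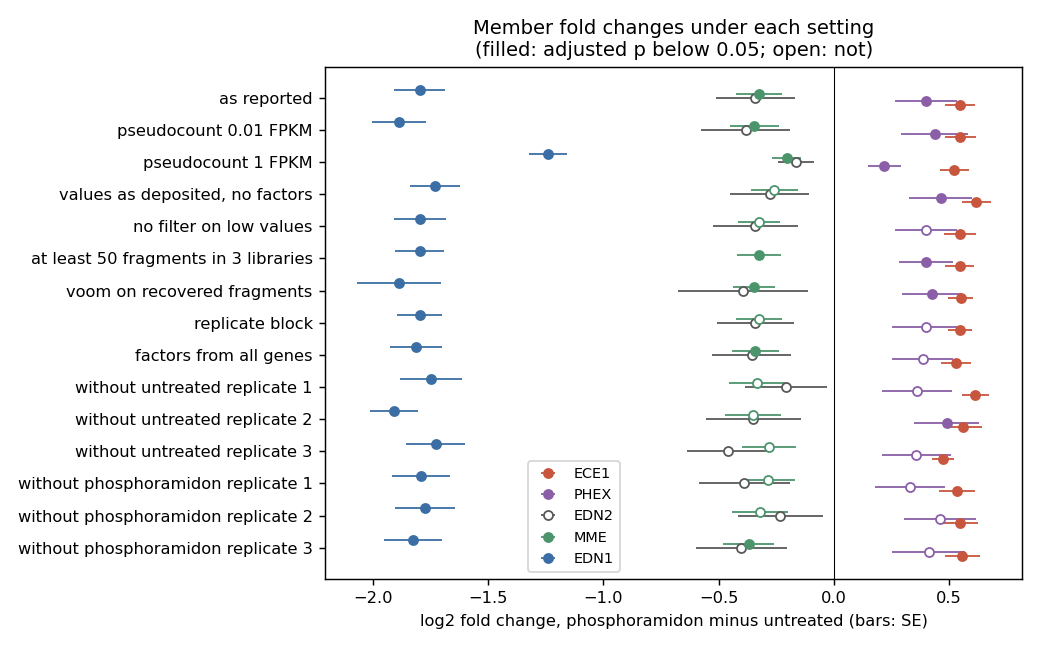
Log2 fold change (horizontal axis, phosphoramidon minus untreated, bars give the SE) of the 5 tested members under the reported setting and each alternative (rows); filled points have a limma adjusted p below 0.05. EDN1 and ECE1 are filled in every row, MME and PHEX are open in 8 of 14 alternatives each, and EDN2 is open wherever it was tested.

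In FPKM, which is per length, the order in untreated cells was ECE1, EDN1 and MME, each above the next in every library, then PHEX and EDN2, whose ranges overlapped, and then EDNRA, with ECE2, ECEL1 and EDNRB at 0 to 1 fragment. In treated cells ECE1 was again first, and MME, PHEX and EDN1 followed with overlapping neighbouring ranges, above EDN2. The order of EDN1 and MME thus differed between groups: EDN1 was above MME in all untreated libraries and below it in all treated ones.

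The level of the converting enzyme relative to its main substrate was compared within each library. The ratio of ECE1 to EDN1 in FPKM was 4.44, 5.23 and 3.56 in untreated and 24.4, 24.6 and 22.4 in treated libraries. All treated ratios were several times the highest untreated one. The means were 4.41 ± 0.835 and 23.8 ± 1.21, and the log2 difference was 2.45, or 5.46-fold. A two-sided exact permutation test gave p = 0.1, the smallest that 3 against 3 libraries allow. This ratio restates the changes of ECE1 and EDN1 above and is no further evidence for either.

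Around the endothelin precursor act the convertases that make big endothelin and the peptidases that trim or degrade it. Of the 10 genes in this list 5 were tested, and CPD, a carboxypeptidase of the trans-Golgi network, was the 1 called higher, with 0 lower. All tested genes together had 33.6% called. CPD was at 30.5, 32.4 and 32.3 FPKM in untreated and 46.9, 49.8 and 48.6 FPKM in treated libraries. The groups were well apart, and CPD had a log2 fold change of 0.54 ± 0.04 (SE, limma adjusted p = 4.19e-05). FURIN, the convertase that first cuts the precursor, was at 7.90 ± 0.612 and 7.34 ± 0.208 FPKM with overlapping groups (log2 fold change -0.17 ± 0.06, SE, limma adjusted p = 0.0572). The list median was 0.06 beside 0.01 for all tested genes. The counts moved by 1 with the libraries used: 2 genes were called higher without untreated replicate 1 or without phosphoramidon replicate 3, and 1 was called lower without untreated replicate 3.

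KEL, the Kell blood group M13 peptidase that can cut big endothelin-3, had 0 fragments in untreated and 1, 3 and 3 in treated libraries. CMA1, a mast cell chymase that releases a longer endothelin-1, had 6, 1 and 2 fragments in untreated and 0 in treated libraries. Both were below the filter and were not tested.

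Among 28 genes that carry or dampen the signal of endothelin receptors inside the cell, 27 passed the filter and were tested. The receptors themselves were close to absent. Of the 27 tested, 6 were called higher and 3 lower, 33.3% in all beside 33.6% of all tested genes. The list median was -0.02. So the list as a whole was called at the rate of the background. The genes that rose were the G protein subunits GNA11 (8.41 ± 0.365 to 10.5 ± 0.272 FPKM) and GNA13 (19.8 ± 0.752 to 24.6 ± 1.08 FPKM), the receptor kinases GRK6 (6.17 ± 0.225 to 8.05 ± 0.570 FPKM), GRK2 and GRK5, and the calcium channel ITPR1. Those that fell were protein kinase C epsilon, PRKCE (6.10 ± 0.217 to 4.00 ± 0.0991 FPKM), the stimulatory subunit GNAS (83.8 ± 1.47 to 75.1 ± 2.30 FPKM) and RGS5, which shortens G protein signals (1.88 ± 0.233 to 1.15 ± 0.0559 FPKM).

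PRKCE and RGS5 had the widest changes in this list, with log2 fold changes of -0.66 ± 0.06 and -0.73 ± 0.12 (SE, limma adjusted p = 0.000113 and 0.00231). GNA11 and GNA13 had smaller ones, 0.25 ± 0.05 each (SE, limma adjusted p = 0.0044 and 0.00418). GRK2 (0.20), GRK5 (0.56) and ITPR1 (0.48) were named after their values were seen. Without phosphoramidon replicate 2 the number called higher was 3, and the 3 lower were as many in each fit with a library left out.

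Of 24 factors known to act on EDN1 transcription, 23 were tested, 3 were called higher and 4 lower, 30.4% in all beside 33.6% of all tested genes. The list median was -0.05. Those that fell were the AP-1 subunits FOS, FOSB and FOSL2 and the mineralocorticoid receptor NR3C2. The AP-1 family binds sites such as the TGACTAA shown above. Its other subunits in the list, JUN, JUNB, JUND and FOSL1, were not called (limma adjusted p = 0.0562, 0.228, 0.0814 and 0.0923). FOSB was at 4.23, 3.87 and 2.49 FPKM in untreated and 1.78, 1.79 and 1.25 FPKM in treated libraries. Its groups did not overlap, with replicate 3 the lowest in both, and its log2 fold change was -1.14 ± 0.22 (SE, limma adjusted p = 0.00647). FOS fell from 13.4 ± 2.30 to 9.80 ± 0.412 FPKM and FOSL2 from 102 ± 3.68 to 81.4 ± 1.88 FPKM.

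NR3C2 was at 3.07, 2.61 and 2.90 FPKM in untreated and 1.88, 1.77 and 1.62 FPKM in treated libraries, well apart (log2 fold change -0.74 ± 0.10, SE, limma adjusted p = 0.000853). The coactivator EP300 rose from 16.6 ± 0.811 to 21.6 ± 1.16 FPKM and the zinc finger factor VEZF1, which binds the EDN1 promoter in endothelial cells, from 15.8 ± 0.508 to 19.1 ± 0.777 FPKM. NFKB1, named after its value was seen, was the third that rose (0.18). For the hypoxia and GATA motifs, HIF1A, ARNT, GATA2, GATA3 and GATA6 were not called (limma adjusted p = 0.562, 0.701, 0.192, 0.0744 and 0.493). GATA4 had 0 to 1 fragment per library. The number called higher was 1 without untreated replicate 2, without phosphoramidon replicate 1 or without phosphoramidon replicate 2. Whether any of these changes bears on EDN1 was not tested.

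**Figure D4:**
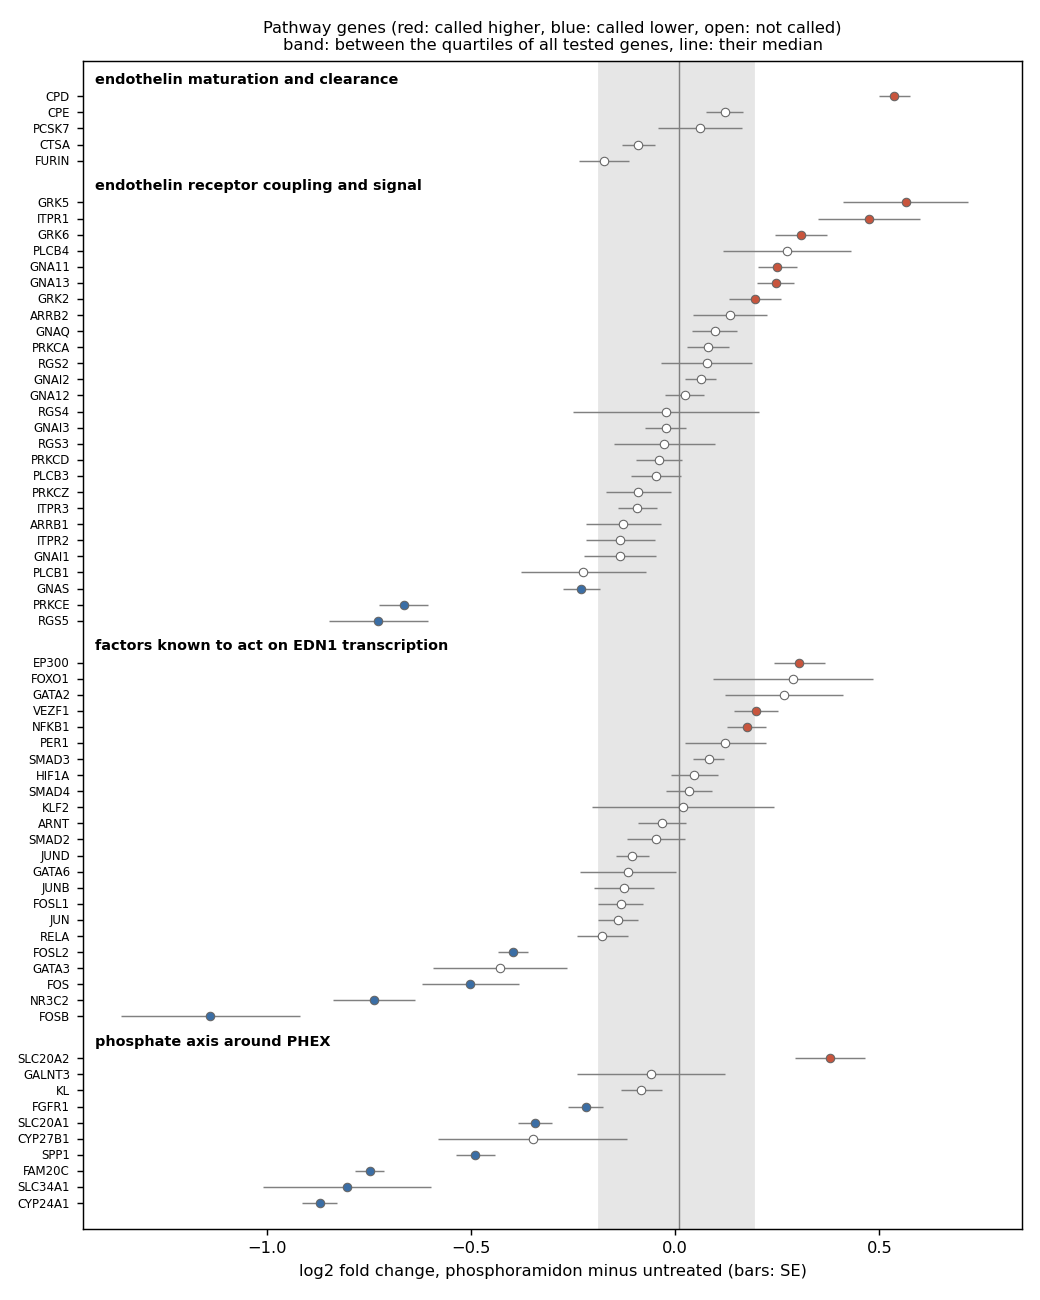
Log2 fold change (horizontal axis, phosphoramidon minus untreated, bars give the SE) of each tested gene in the 4 pathway lists (rows); red points were called higher, blue lower and open ones not, and the grey band spans -0.19 to 0.19, the range between the quartiles of all tested genes. Genes of the phosphate list lie mostly to the left of the band, and those of the other lists on both sides and within it.

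The phosphate axis around PHEX had 10 of 14 genes tested, with 1 called higher and 6 lower. That was 70% in all beside 33.6% of all tested genes, and the list median was -0.35. Among the 6 is SLC34A1, which passed the filter only through its untreated libraries. FGF23 and DMP1, bone genes of this axis, had 0 to 1 and 0 to 3 fragments per library. CYP24A1, the hydroxylase that inactivates vitamin D, was at 16.0, 16.9 and 16.9 FPKM in untreated and 9.39, 9.27 and 9.82 FPKM in treated libraries. It was lower in every treated library and also passed the test against 1.5-fold (log2 fold change -0.87 ± 0.04, SE, limma adjusted p = 6.56e-06, and 0.0112 against 1.5-fold).

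FAM20C, the Golgi kinase that phosphorylates FGF23 and osteopontin, fell from 33.9 ± 0.315 to 21.2 ± 0.646 FPKM. SPP1, which encodes osteopontin, a secreted substrate of PHEX, fell from 693 ± 15.4 to 519 ± 18.3 FPKM. Among phosphate carriers, SLC20A1 fell from 40.6 ± 0.720 to 33.6 ± 1.41 FPKM and SLC20A2 rose from 3.71 ± 0.410 to 5.08 ± 0.150 FPKM. The FGF receptor FGFR1 fell by 0.22 on the log2 scale, and its co-receptor KL was not called, at 9.46 ± 0.224 and 9.38 ± 0.354 FPKM. The tubular carrier SLC34A1, named after its value was seen, is also one of the proximal tubule markers. It was at 0.161 ± 0.0499 and 0.0533 ± 0.0282 FPKM and was called lower (log2 fold change -0.80). Its treated values of 0.0236, 0.0797 and 0.0564 FPKM rested on few fragments, so this call is no support for a decrease in the list. With at least 50 fragments in 3 libraries, 5 genes of the list were called lower. PHEX itself was called higher while 6 of these genes, SLC34A1 included, were called lower. The sum of fibroblast and mesangial marker genes, given above, was lower in the same treated libraries. Any relation of these genes to this list was not tested.

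The nearest tested gene on each side was examined for each of the 5 tested members. Of 10 neighbours, 2 were called higher and 4 lower, where 33.6% of all tested genes were called. HIVEP1, a zinc finger factor gene 125364 bp from EDN1, was at 3.99, 4.35 and 4.22 FPKM in untreated and 2.24, 2.46 and 2.68 FPKM in treated libraries, so the gene beside EDN1 was also lower in every treated library (log2 fold change -0.81 ± 0.08, SE, limma adjusted p = 0.00013). The neighbour on the other side, the ribosomal protein pseudogene RPL15P3, was not called. HIVEP3, of the same gene family as HIVEP1 and 21692 bp from EDN2, was called lower (-0.39), and FOXO6 on the other side of EDN2 was called higher (0.30).

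Beside ECE1, NBPF3, 94556 bp away and one of a family of near-identical copies whose reads may be shared, was called higher (0.59), and the translation factor gene EIF4G3 was not called. Beside MME, the phospholipase gene PLCH1 at 191851 bp was called lower (-0.70), and DHX36 was not called. Beside PHEX, the spermine synthase gene SMS at 37606 bp was called lower (-0.18, limma adjusted p = 0.0438), against the direction of PHEX, and PTCHD1 was not called.

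The genes whose log2 values followed EDN1 most closely over the 6 libraries were PLK2, ZNF587B and SNU13, with a Pearson r of 0.999, 0.999 and 0.998. Their decreases were smaller than that of EDN1, with log2 fold changes of -0.36, -0.41 and -0.29. For ECE1 they were ATXN1L, DHX38 and LRPAP1, each with r = 0.998 and log2 fold changes of 0.22, 0.16 and 0.35. With 2 groups that lie apart, such values largely restate the difference between groups: 1054 genes had r of at least 0.95 with EDN1 and 519 with ECE1. They are a description over 6 libraries that share the same contrast.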

How the data were processed

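The deposited values are FPKM per gene in 6 libraries, as found from the values. Per the submitters' processing notes the authors used GRCh38, HISAT2 2.1.0, featureCounts 1.6.0, Trimmomatic 0.38, DESeq2 1.22.1, MultiQC, FastQC and CASAVA, in roles the notes do not state. Annotation and strand setting: not given in the sources used here. Members and lists were chosen with earlier results of these data known.

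Whole fragments were recovered within 0.05 from each library's step and gene length. At GENCODE 29 exon lengths 79.2% of 34623 genes above 0 came out whole. For the rest, ECE1, PHEX, EDN1 and EDN2 included, a length was searched, so their fragment numbers rest on that length. A table matched 37892 IDs to symbols. FPKM were divided by TMM factors (30% of M and 5% of A values trimmed) from the genes tested. limma 3.58.1 (R 4.3.3, trended and robust prior, group alone) was run on log2(FPKM + 0.1) for genes with at least 10 fragments in at least 3 libraries, which understates changes of low genes. P-values were adjusted over all genes by Benjamini-Hochberg at 0.05, and treat was used against 1.5-fold. Means and SDs are of the deposited FPKM. Fragment intervals are exact at 95% and use no TMM factors, and limits for 0 use 3 fragments. The fit was tested on simulated data. RefSeq promoters are on GRCh38.p14 and were found for 8 of the 10 members.

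Named genes are all members, up to 6 called genes of each list with the lowest p, list genes at 0, neighbours, and the 3 genes most alike to ECE1 and EDN1 with a mean of at least 1 FPKM. Uncalled or untested list genes above 0 (such as FURIN, JUN, KL, KEL and GATA4) were named outside this rule, with their values known. Alternatives were pseudocounts, filters, scaling, voom, a replicate block and each library left out. TMM factors from all genes were added after seeing the data. The result of one marker, and sums that hold it, are not reported here.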

Additional observations from a re-analysis of the deposited data

How the results depend on the processing

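EDN1 and ECE1 were called in the same direction in all 14 alternatives (limma adjusted p 6.25e-10 to 0.000753 and 2.58e-09 to 0.00606), and EDN2 was called in 0 of 13 (limma adjusted p 0.0989 to 0.431). With at least 50 fragments in 3 libraries EDN2 was not tested. MME and PHEX kept their direction in all 14 and lost the call in 8 each (limma adjusted p 0.00253 to 0.116 and 0.0093 to 0.142). MME was not called without factors (-0.26), without a filter on low values (-0.32, adjusted p = 0.0897) or with the replicate block (-0.32, adjusted p = 0.0501), and ran from -0.37 to -0.28 with each library left out. PHEX was not called without a filter (0.40, adjusted p = 0.142), with the replicate block (0.40, adjusted p = 0.0845) or with factors from all genes (0.39, adjusted p = 0.0534), and ran from 0.33 to 0.49 with each library left out. Same-numbered libraries did not deviate together (r = 0.110, -0.0196 and -0.00961), so the numbers pair nothing that could be seen, and the block changed no other member's call.

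Without a filter 1541 genes were called higher. The genes past 1.5-fold numbered 68 with a pseudocount of 1, 63 without a filter and 273 with voom, and 84 to 138 with each library left out (86 without untreated replicate 1 and 84 without untreated replicate 2). In the maturation and clearance list, 2 genes were called higher without factors, with at least 50 fragments and with voom (1 to 2 with each library left out), and 1 was called lower with at least 50 fragments, with voom and with factors from all genes (0 to 1 with each library left out). Without a filter 3 receptor coupling genes and 1 transcription factor gene were called higher, and with each library left out 3 to 5 and 1 to 3. The causes were not tested. Depth limits EDNRA, EDNRB, ECE2 and ECEL1, which had at most 8 fragments in any library. For ECE2, reads from the exon bases shared with EEF1AKMT4-ECE2 may also have been left out by the counting.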
